A study of Mus musculus with 12 samples.

Results

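A set of 10 genes widely used to mark cancer-associated fibroblasts and pericytes was followed across tumors of a mouse model of oral cancer recurrence. The genes were Pdgfra, Pdgfrb, Acta2, Tagln, Fap, Postn, Thy1, S100a4, Pdpn and Sparc. They were chosen by name, and every probe that carries 1 of these symbols in the platform annotation was taken, which gave 22 of 45135 probes on Illumina mouse WG-6 v2 arrays. Of these, 13 probes of 8 genes were brighter than the negative control probes on at least 2 of 12 arrays and were tested, among 18454 such probes in all.

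The tumors grew in BALB/c-nu mice, athymic nude animals, after SCC-7 cells had been injected into the floor of the mouth. SCC-7 is a murine squamous cell carcinoma line, and the labels name no genetic change or drug in any group. The groups were 5 recurrent tumors, which grew back at the site after microsurgical removal, the 5 primary tumors that had been removed from those animals, and 2 SCC-7 samples from culture. The age of the animals and the time to recurrence are not given in the sources used here. Bulk RNA of each tumor was measured, so that fewer cells of a type and less RNA per cell cannot be told apart.

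Fibroblasts lay down and remodel the collagenous matrix of a tumor, and pericytes are the contractile cells that wrap small blood vessels. Both respond to platelet-derived growth factor (PDGF) through the receptors encoded by Pdgfra and Pdgfrb, and fibroblasts exposed to transforming growth factor beta (TGF-beta) can become contractile myofibroblasts. Contractile genes such as Acta2 are driven by serum response factor (SRF), which binds a DNA element called the CArG box. None of the 10 genes is restricted to these cells, and several are also made by carcinoma cells, lymphocytes or smooth muscle.

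In these data, only Acta2 and Thy1 separated both tumor groups from the injected cells by the test, and no marker separated recurrent from primary tumors. By its brightest probe, Acta2 was 23.4-fold higher in recurrent tumors and 35.6-fold higher in primary tumors than in the cultured line. Thy1 was 18.4-fold and 24.0-fold higher in the same comparisons. The size of these folds rests on dim SCC-7 readings and moved with the processing and the probe. Another Acta2 probe, ILMN_2710354, gave 3.78-fold and 4.88-fold. Pdgfra, S100a4, Pdpn and Sparc were detected in the cultured SCC-7 cells themselves and were not called different in the tumors. Acta2 was also detected there, but dimly. Postn was detected on none of the 12 arrays, and Tagln on 1.

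The promoter of Acta2 is shown because among the markers this gene had the largest difference between tumors and cultured cells, and that of S100a4 because it was the marker whose level in all 10 tumors lay below that of the cultured cells. RefSeq promoters (build GRCm38.p6) were at hand for 6 of the 10 genes, and the 250 bases before the start site were read. The Acta2 promoter lies at chr19:34255374-34255623 on the minus strand, the S100a4 promoter at chr3:90603520-90603769 on the plus strand. Capitals mark CArG-like sites in Acta2 and the letters TATAAA in S100a4.
Acta2: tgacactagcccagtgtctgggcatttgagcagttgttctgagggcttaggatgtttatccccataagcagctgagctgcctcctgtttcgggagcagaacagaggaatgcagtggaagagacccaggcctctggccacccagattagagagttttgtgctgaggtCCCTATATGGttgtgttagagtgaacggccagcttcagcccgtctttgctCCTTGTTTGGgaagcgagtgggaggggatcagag
S100a4: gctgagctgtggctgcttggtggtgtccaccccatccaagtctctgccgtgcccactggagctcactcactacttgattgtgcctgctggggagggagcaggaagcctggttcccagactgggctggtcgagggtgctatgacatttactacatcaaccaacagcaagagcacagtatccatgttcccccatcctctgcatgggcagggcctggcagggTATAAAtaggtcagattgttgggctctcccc

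The Acta2 stretch held 2 CArG-like sites, CCCTATATGG and CCTTGTTTGG, which begin 84 and 34 bases before the start site and each carry 1 G or C in the core that the full CArG consensus reserves for A and T. The full consensus was found in 0 of the 7 promoters of these genes and in 1.47% of all 32851 promoters, searched on both strands. With 1 G or C allowed in the core, a search that was chosen after the sequences had been seen, it was found in 1 of the 7 and in 8.59% of all promoters, and 0.67% held 2 or more such sites. The letters TATAAA, also searched on both strands, occurred 31 bases before the S100a4 start site and 26 bases before 1 of the 2 start sites of Postn, against 12.4% of all promoters with at least 1 match. These matches are letters in a window and were not tested as binding sites.

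All levels below are log2 of the background-corrected and quantile-normalized intensity, to which an offset of 16 had been added, so that a probe at background reads a little above 4 and 1 unit is a doubling. A probe counted as detected when its intensity was reached by under 1 in 100 of the negative controls. Between 13711 and 17083 probes were detected per array, with fewest in the SCC-7 samples. Primary tumor 3 stood apart from the other tumors in most of these genes, and the tumors of pair 1 were the only pair whose deviations from their group means ran against each other, with a correlation of -0.37 across probes. This correlation does not test whether the 2 tumors of pair 1 were exchanged, and the deposited labels, which the groups follow, do not settle it. An exchange would turn the sign of every difference given for pair 1. Values without primary tumor 3, pair 3 or pair 1 are given beside the results that rest on them. Differences from SCC-7 cells came from a limma fit of the 3 groups and were called when they were at least 2-fold with an adjusted p under 0.05. Both comparisons with SCC-7 cells share the same 2 cultured samples.

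**Figure D1:**
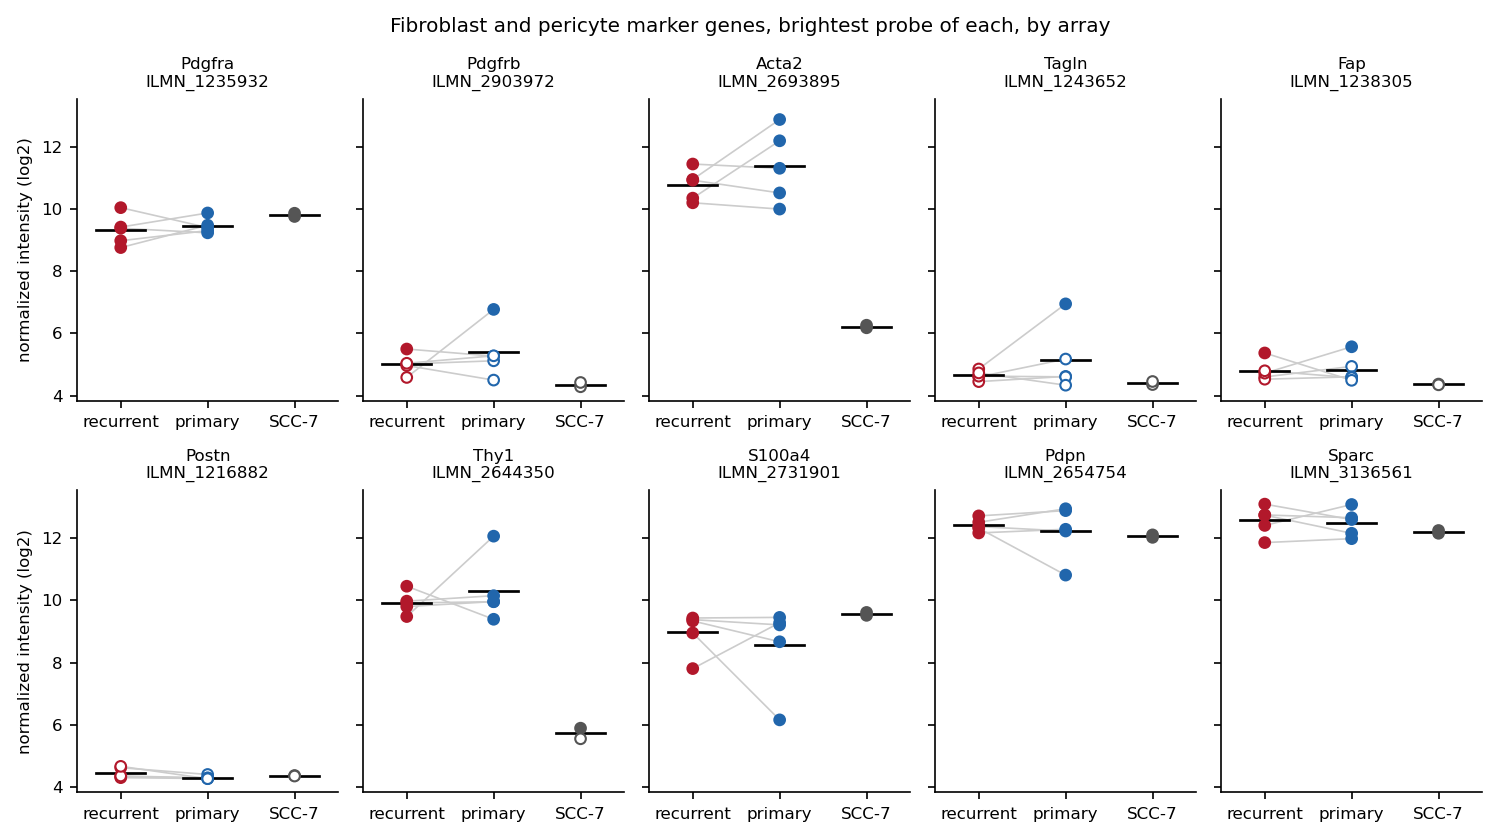
Normalized intensity (log2) of the brightest probe of each of the 10 genes on every array, with recurrent tumors left, primary tumors in the middle and SCC-7 cells right. Filled points were detected and open points were not, black bars are group means and grey lines join tumors of 1 animal. Acta2 and Thy1 lie far above the SCC-7 samples in all 10 tumors, Pdgfra, S100a4, Pdpn and Sparc are detected in all 12 samples, and Postn stays at background.

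Acta2 encodes smooth muscle alpha-actin, the contractile actin of myofibroblasts, pericytes and smooth muscle. Its brightest probe (ILMN_2693895) read 10.35, 10.20, 10.95, 10.92 and 11.44 in recurrent tumors 1 to 5. It read 12.19, 9.99, 12.87, 10.51 and 11.31 in primary tumors 1 to 5, and 6.18 and 6.26 in SCC-7 cells. All 10 tumors were far above both SCC-7 samples, while the 2 tumor groups overlapped and the primary tumors spread more widely. The log2 difference from SCC-7 cells was 4.55 in recurrent tumors (SE 0.64, adjusted p 0.0006657) and 5.15 in primary tumors (SE 0.64, adjusted p 0.000265, both by limma). Without primary tumor 3 the difference in primary tumors was 4.78.

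A further 3 Acta2 probes were also called higher in both tumor groups. ILMN_2923445 averaged 8.17 ± 0.38 in recurrent and 8.73 ± 1.24 in primary tumors (SD, n = 5 each) and was not well above background in either SCC-7 sample. ILMN_2710353 averaged 6.92 ± 0.37 in recurrent and 7.30 ± 0.77 in primary tumors (SD, n = 5 each), again undetected in SCC-7 cells. For a probe undetected in a group, the fold is a lower bound, taken against the lowest signal among detected probes of each array or the probe's own signal, whichever was higher. By this bound ILMN_2923445 was at least 5.62-fold higher in recurrent tumors (limma adjusted p 0.004827) and at least 8.29-fold higher in primary tumors (limma adjusted p 0.001886), and ILMN_2710353 at least 2.37-fold higher in recurrent tumors (limma adjusted p 0.006703) and at least 3.08-fold higher in primary tumors (limma adjusted p 0.002609). ILMN_2710354, detected in 1 of 2 SCC-7 samples, differed by 1.92 in recurrent tumors (SE 0.46) and 2.29 in primary tumors (SE 0.46) on the log2 scale. Across the 10 tumors these 4 probes correlated with each other at r between 0.89 and 0.99. A pair of other Acta2 probes (ILMN_1237242 and ILMN_1236619) was detected on no array and stayed between 4.24 and 4.55, so that a dark probe in this set does not by itself show that its transcript was absent.

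Thy1 encodes a glycosylphosphatidylinositol-anchored surface protein of fibroblasts, of pericytes, and, in the mouse, of T cells. ILMN_2644350 read 9.92, 9.98, 9.48, 10.46 and 9.80 in recurrent tumors 1 to 5. The primary tumors read 9.96, 10.15, 12.06, 9.39 and 9.96, and the SCC-7 samples 5.89 and 5.55, the second of them undetected. Every tumor was above both SCC-7 samples, and primary tumor 3 was above all others. The log2 difference from SCC-7 cells was 4.20 in recurrent tumors (SE 0.55, adjusted p 0.0003797) and 4.58 in primary tumors (SE 0.55, adjusted p 0.0002021, both by limma). Without primary tumor 3 it was 4.14 in primary tumors (adjusted p 2.224e-06 by limma). The other Thy1 probe, ILMN_2474578, was detected on no array.

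Because Thy1 is shared with T cells, the T cell markers Cd3e, Cd3g, Cd3d and Cd2 were read beside it, and Lck and Cd8a had no kept probe. Their summed intensity, after the offset was subtracted, was 106.2 to 204.8 in recurrent tumors. It was 58.1 to 141.9 in the primary tumors other than primary tumor 3, in which it was 4925, and 24.1 to 30.3 in SCC-7 cells, where all 4 were undetected. The tumor with the highest Thy1 level was thus also the one with the highest T cell sum. The other 9 tumors also had higher T cell sums than SCC-7 cells, and the part of T cells in the Thy1 difference was not tested.

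Pdgfrb and Fap, a receptor of pericytes and a surface protease of activated fibroblasts, were close to background. Pdgfrb (ILMN_2903972) was detected in recurrent tumor 1 at 5.50 and in primary tumor 3 at 6.77, and in no other sample. Fap (ILMN_1238305) was detected in recurrent tumor 5 at 5.37 and in primary tumor 3 at 5.57, while its other probe (ILMN_1235181) was detected nowhere. All 10 tumors nevertheless lay above both SCC-7 samples for these 2 probes, by a small margin in which most tumors were not themselves detected. Pdgfrb averaged 5.02 ± 0.32 in recurrent and 5.39 ± 0.84 in primary tumors (SD, n = 5 each) and 4.35 in SCC-7 cells (n = 2). Neither gene was called against SCC-7 cells. The limma adjusted p was 0.3401 in recurrent and 0.1349 in primary tumors for Pdgfrb, and 0.3346 and 0.2844 for Fap. No fold is given because the means of both tumor groups lay below the floor of detection in the SCC-7 samples.

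Tagln encodes transgelin, an actin-binding protein of smooth muscle, and Postn encodes periostin, a matrix protein of activated fibroblasts. Neither had a probe that was kept. Tagln ILMN_1243652 lay between 4.45 and 4.85 in recurrent tumors and between 4.33 and 5.17 in primary tumors 1, 2, 4 and 5, and was detected only in primary tumor 3, at 6.95. ILMN_1215145 of Tagln and all 3 Postn probes were detected on no array. The highest Postn reading was 4.67, in recurrent tumor 5. These genes were not tested, and nothing can be said of their direction.

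Pdgfra, S100a4, Pdpn and Sparc formed the second set, which the cultured carcinoma cells already carried and whose brightest probes did not pass the test. Pdgfra (ILMN_1235932), the PDGF receptor of many fibroblasts, read 9.38, 10.04, 8.76, 9.42 and 8.98 in recurrent tumors 1 to 5. It read 9.23, 9.40, 9.48, 9.87 and 9.30 in primary tumors and 9.76 and 9.86 in SCC-7 cells. Of the 10 tumors, 8 lay below both SCC-7 samples and 2 above. The log2 difference was -0.49 in recurrent tumors (95% interval -1.15 to 0.17) and -0.35 in primary tumors (95% interval -1.01 to 0.31), and neither was called.

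S100a4 encodes a small calcium-binding protein also known as fibroblast-specific protein, and carcinoma and myeloid cells make it too. ILMN_2731901 read 9.34, 7.81, 8.95, 9.38 and 9.43 in recurrent tumors 1 to 5. The primary tumors read 8.67, 9.28, 6.16, 9.21 and 9.45, and the SCC-7 samples 9.52 and 9.61. All 10 tumors lay below both SCC-7 samples, most of them by little, with primary tumor 3 and recurrent tumor 2 furthest down. The difference was -0.58 in recurrent tumors (95% interval -2.25 to 1.08) and -1.01 in primary tumors (95% interval -2.67 to 0.65), neither called, and without primary tumor 3 the second was -0.41.

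Pdpn encodes podoplanin, a mucin-like membrane protein of fibroblasts, lymphatic endothelium and the invasive edge of squamous carcinomas. ILMN_2654754 read 12.72, 12.51, 12.32, 12.37 and 12.17 in recurrent tumors 1 to 5. In primary tumors it read 12.89, 12.95, 10.81, 12.23 and 12.29, and in SCC-7 cells 12.11 and 12.03. Of the tumors, 9 were above both SCC-7 samples and primary tumor 3 was below them. The log2 difference was 0.35 in recurrent tumors (95% interval -0.64 to 1.34) and 0.17 in primary tumors (95% interval -0.82 to 1.16). Without primary tumor 3 the second was 0.52, again not called.

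Sparc encodes osteonectin, a secreted collagen-binding protein of fibroblasts and endothelium. Its brightest probe (ILMN_3136561) read 12.74, 13.09, 11.86, 12.41 and 12.75 in recurrent tumors 1 to 5. It read 12.16, 12.60, 11.98, 13.08 and 12.66 in primary tumors and 12.16 and 12.25 in SCC-7 cells, so that the tumors lay on both sides of the cultured samples. The log2 difference was 0.37 in recurrent (95% interval -0.38 to 1.11) and 0.29 in primary tumors (95% interval -0.45 to 1.04). The 3 kept Sparc probes did not move together, with r between 0.01 and 0.86 across the 10 tumors. The dimmest of them, ILMN_1243212, was undetected in SCC-7 cells and at least 1.46-fold higher in recurrent tumors (limma adjusted p 0.1238) and at least 1.79-fold higher in primary tumors (limma adjusted p 0.05278), neither of which passed the threshold. ILMN_3059326 was lowest in primary tumor 3, at 10.70, where ILMN_1243212 read 7.02, the second highest value of that probe.

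**Figure D2:**
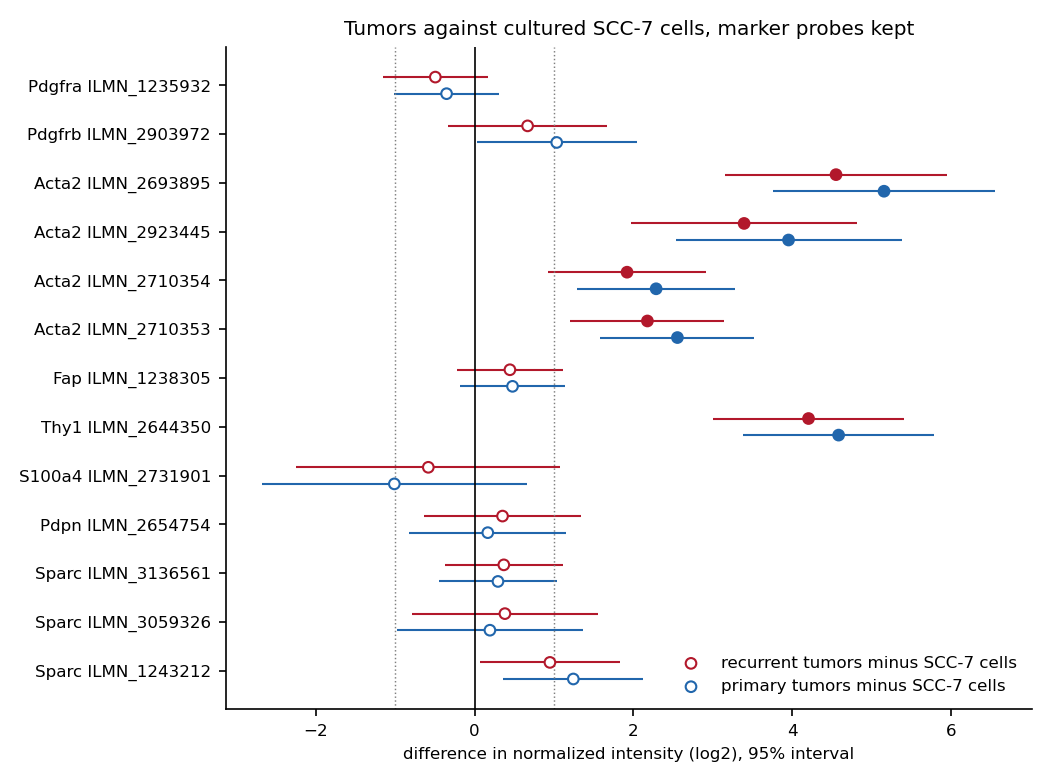
Difference in normalized intensity (log2) of each kept marker probe, recurrent tumors minus SCC-7 cells in red and primary tumors minus SCC-7 cells in blue, with 95% intervals from the limma fit of 12 arrays. Filled points were called (at least 2-fold, adjusted p under 0.05), and dotted lines mark 2-fold. The 4 Acta2 probes and Thy1 are filled in both comparisons and all other probes are open.

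In all, 5 of the 13 kept probes, those of 2 genes, were called higher in each tumor group than in SCC-7 cells and 0 were called lower. Over all kept probes, recurrent tumors had 6.86% higher and 5.02% lower, and primary tumors 6.64% higher and 5.73% lower. The median log2 difference over the 8 kept genes was 0.41 in recurrent and 0.39 in primary tumors, beside -0.11 and -0.15 over all kept probes, and 6 of the 8 genes had a positive difference in either comparison. These values only describe the markers, since Acta2 ILMN_2923445 and ILMN_2710353, Sparc ILMN_1243212, Pdgfrb and Fap passed the filter through tumors alone. All 10 tumors were above both SCC-7 samples for 7 probes of 4 genes, which 15% of all kept probes also showed, and below them for 1 probe, which 24.2% showed. When 1 of the 2 SCC-7 samples was left out, Acta2 ILMN_2693895 and Thy1 remained called in both comparisons, but the calls fell to 2 probes in recurrent tumors without either sample, and to 3 probes in primary tumors without SCC-7 sample 1 and 4 without SCC-7 sample 2.

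Recurrent tumors were then compared with the primary tumors of the same animals, which is the comparison the study was set up for. Of all kept probes, 0% were called at an adjusted p under 0.05 in the limma fit that took the animal as a block, where the lowest adjusted value was 0.9326. Before adjustment 601 of 18454 probes had a p under 0.05, 0 of them from the marker genes, and the methods' t-test had 423 and 0. The smallest unadjusted p among the markers was 0.2004, for Acta2. An exact sign-flip test over the 5 pairs gave two-sided p between 0.4375 and 0.9375 for the 13 probes before adjustment, where 0.063 is the smallest that 5 pairs allow.

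No marker moved in 1 direction in all 5 pairs. For Acta2, the recurrent tumor was lower than its primary tumor by 1.84 in pair 1 and by 1.93 in pair 3, and higher by 0.20, 0.41 and 0.14 in pairs 2, 4 and 5, on the log2 scale. The mean difference was -0.60 (SE 0.43, 95% interval -1.62 to 0.41), -0.29 without pair 1 and -0.27 without pair 3. Acta2 thus went down at least 2-fold in 2 pairs and stayed within 2-fold in 3. In pair 1 some other cell type sums were lower in the recurrent tumor too, and others were higher. The salivary sum was 133.4 in recurrent tumor 1 against 139100 in primary tumor 1, and the squamous sum was 717.4 against 5174. Skeletal muscle markers summed to 167.7 in recurrent tumor 1 against 553.9 in primary tumor 1, and adipocyte markers to 43.3 against 329.5. The T cell and bone cell sums were also lower in recurrent tumor 1. The macrophage and leukocyte sum was higher, at 20910 in recurrent tumor 1 against 11810 in primary tumor 1. The endothelial sum was higher too, at 1274 against 900.7, and so was the lymphatic marker Lyve1. Primary tumor 1 had the highest salivary and squamous sums of the 10 tumors. The part of any of these cell types in the Acta2 difference was not tested. Thy1 differed by -0.04, -0.17, -2.58, 1.06 and -0.16 in pairs 1 to 5, with a mean of -0.38 (SE 0.48, 95% interval -1.52 to 0.76), and by 0.17 on average without pair 3. Its large changes were confined to pairs 3 and 4, and they were opposite.

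S100a4 differed by 0.67, -1.48, 2.79, 0.17 and -0.02 in pairs 1 to 5, again with opposite signs in the 2 pairs that moved most. Its mean was 0.43 (SE 0.55, 95% interval -0.88 to 1.74), and -0.16 without pair 3. Pdpn differed by 1.51 in pair 3 and by -0.43 to 0.14 in the other 4 pairs. Its mean of 0.19 (95% interval -0.52 to 0.89) became -0.15 without pair 3. Pdgfra stayed within 2-fold in all 5 pairs, between -0.72 and 0.64, with a mean of -0.14 (95% interval -0.68 to 0.40). Sparc ILMN_3136561 also stayed within 2-fold, between -0.67 and 0.58, with a mean of 0.07 (95% interval -0.45 to 0.60). Pdgfrb differed by -2.19 in pair 3 and by -0.24 to 0.47 elsewhere, and Fap by -0.85 to 0.88, in both cases mostly between undetected readings.

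**Figure D3:**
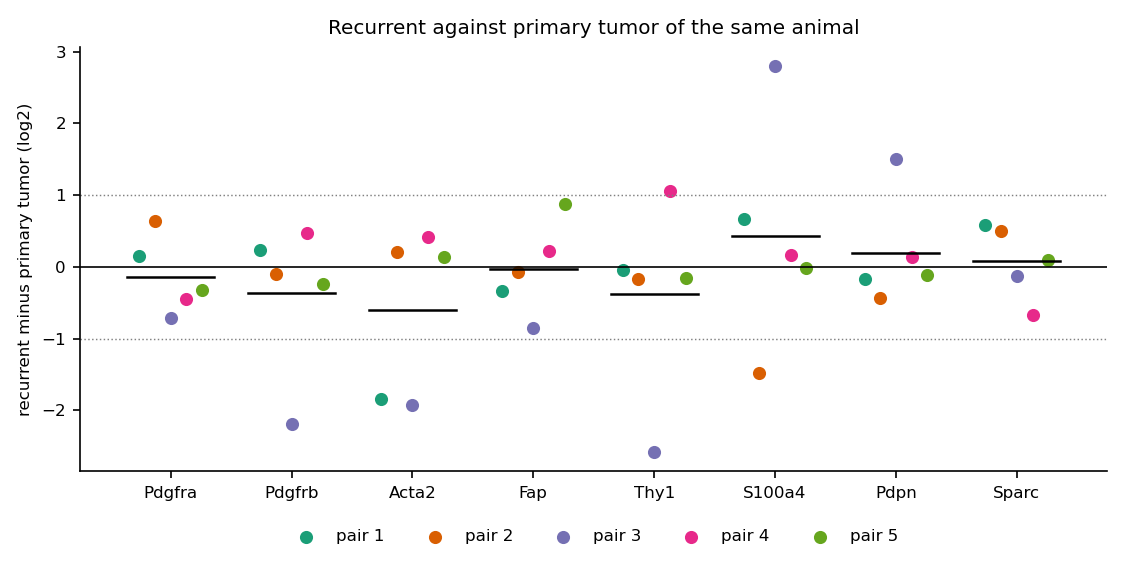
Difference between the recurrent and the primary tumor of each animal (log2) for the brightest kept probe of 8 marker genes, 1 point per pair, with the mean of 5 pairs as a black bar and 2-fold as dotted lines. Pair 3 is the outermost point of Pdgfra, Pdgfrb, Acta2, Thy1, S100a4 and Pdpn, downward in the first 4 and upward in the other two.

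The study selected transcripts altered in at least 3 of 5 pairs, and a 2-fold limit was used for this here. None of the 13 probes met it, against 0.997% of all kept probes in the upward and 0.341% in the downward direction. It was also met by 0 marker probes at 1.5-fold in 3 pairs or 2-fold in 4 pairs. The median log2 difference over the 8 genes was -0.09, beside 0.03 over all kept probes. At this number of tumors the intervals above still allow differences of more than 2-fold, upward for S100a4 and downward for Acta2, Thy1, Pdgfrb and Sparc ILMN_1243212.

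Single tumors differed widely in some of the markers. The SD over the 10 tumors was 0.91 for Acta2, 1.05 for S100a4 and 0.75 for Thy1, larger than that of 91.5%, 93.9% and 86.2% of all kept probes, whose median SD was 0.38. It was 0.37 for Pdgfra and 0.43 for Sparc ILMN_3136561, close to this median. Primary tumor 3 had the highest level of all 10 tumors for the 4 Acta2 probes, Thy1, Pdgfrb and Fap, and the lowest for S100a4, Pdpn and Sparc ILMN_3059326. This tumor also had the highest endothelial sum (Pecam1, Cdh5, Kdr, Tek, Tie1 and Emcn) of the tumors, 2087, against 831.6 to 1489 in recurrent tumors and 900.7 to 1152 in the other primary tumors. Its skeletal muscle sum (Ckm, Acta1, Tnnt3, Tnnc2 and Mylpf, with Myh4 not kept) was 2776, the highest of the primary tumors, where the others had 71.6 to 553.9, while recurrent tumors had 99.0 to 3274. The part of these cells in the marker levels was not tested.

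**Figure D4:**
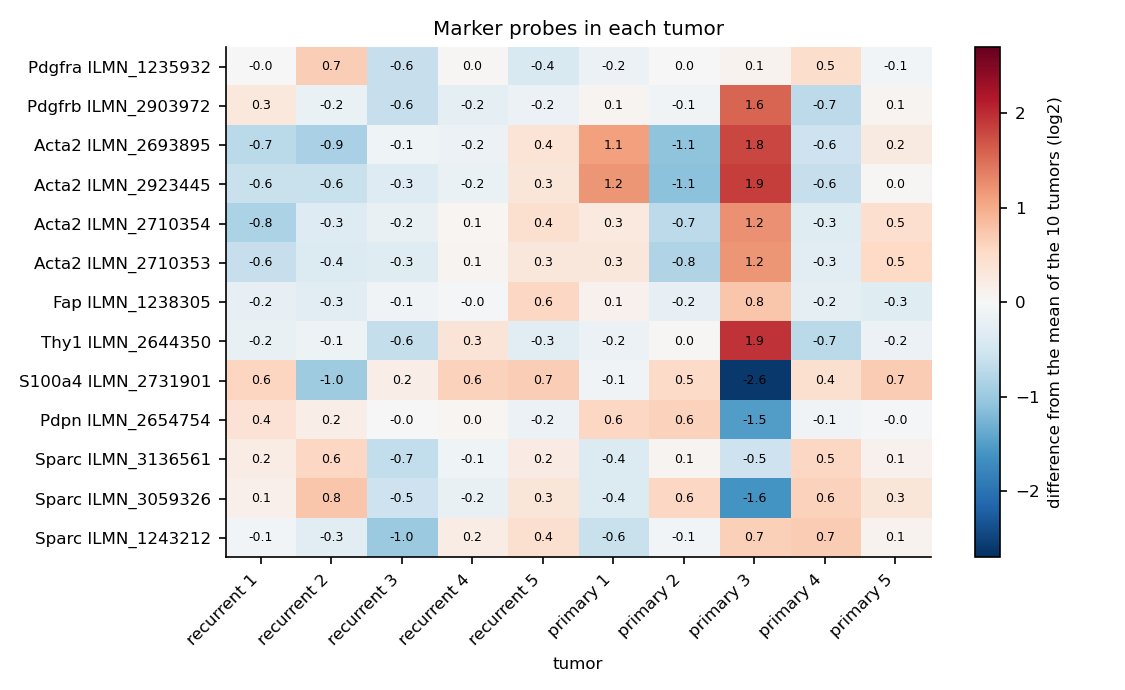
Level of each kept marker probe in each tumor as the difference from the mean of the 10 tumors (log2), recurrent tumors left and primary tumors right. Red is above and blue below the mean. Primary tumor 3 is the column with the strongest colors, high for Acta2, Thy1, Pdgfrb and Fap and low for S100a4, Pdpn and Sparc ILMN_3059326.

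Across the 10 tumors, all measured in 1 set of arrays and with 2 tumors from each animal, the markers paired off only in part. Pdgfrb and Fap were each detected in only 2 of the 10 tumors, so that their correlations rest mostly on readings near background. Pdgfrb and Thy1 correlated at r = 0.91, which became 0.58 without primary tumor 3. Acta2 and Fap correlated at 0.79 and without that tumor at 0.59, and Acta2 and Thy1 at 0.62 and without it at -0.03. S100a4 and Pdpn correlated at 0.73 and without it at -0.22. Pdgfra and Sparc ILMN_3136561 correlated at 0.67 and without primary tumor 3 at 0.80. This was the only one of these 5 pairs of markers whose correlation was not weaker without that tumor. It rests on 1 Sparc probe, and the 3 kept Sparc probes correlated with each other at only 0.01 to 0.86. Other markers ran against each other. Thy1 and S100a4 correlated at -0.79 and without primary tumor 3 at 0.06, and Pdgfrb and S100a4 at -0.75 and without it at 0.09. Thy1 and Pdpn correlated at -0.74 and without it at 0.40. Some opposite pairs did not rest on that tumor. Acta2 and Sparc ILMN_3136561 correlated at -0.63 and without primary tumor 3 at -0.50. Pdgfra and Acta2 correlated at -0.31 and without it at -0.52. Because the markers did not move as a block, their centred mean varied only from -0.33 in recurrent tumor 3 to 0.19 in primary tumor 3. Of 10338 genes, those most like this mean over the 10 tumors were Gmeb2 (r = 0.93), Dis3l2 (0.91), Plxnc1 (0.87), Dmtn (0.85), Hivep1 (0.85), Gpn2 (0.85), Ankzf1 (0.83) and Pcyt2 (0.83). Their ranges over the tumors went from 0.47 for Dis3l2 to 1.89 for Dmtn on the log2 scale. These are the highest of 10338 correlations over only 10 tumors and were not tested against chance, so they do not show shared regulation.

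Genes related to the markers were read in 3 lists, and the cells that made these transcripts were not tested. Of 25 stromal matrix genes 22 were measured, and 7 rose in both tumor groups against SCC-7 cells (Col1a1, Dcn, Lum, Fbln2, Fn1, Lox and Loxl1), where 6.86% of all kept probes were higher in recurrent and 6.64% in primary tumors. Of the 22 genes, 9 were undetected in SCC-7 cells, 5 of the 7 among them. Kept through tumors alone, these 9 could not be called lower in tumors, so that the list's count and median only describe it. Dcn, the collagen-binding proteoglycan decorin, averaged 12.22 ± 0.68 in recurrent and 12.44 ± 0.39 in primary tumors (SD, n = 5 each) and 7.98 in SCC-7 cells, with log2 differences of 4.23 (SE 0.41, limma adjusted p 3.477e-05) and 4.45 (SE 0.41, limma adjusted p 2.599e-05). Fn1, which encodes fibronectin, was undetected in SCC-7 cells and at least 14.6-fold higher in recurrent and 15.01-fold higher in primary tumors. Col1a1, a chain of type I collagen, was at least 6.60-fold and 9.16-fold higher, and Fbln2, a fibulin of the matrix, at least 3.91-fold and 4.05-fold higher. The list's median difference was 1.19 in recurrent and 0.80 in primary tumors, beside -0.11 and -0.15 over all kept probes.

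Of 23 mural cell and smooth muscle genes 19 were measured, of which 2 were called higher in recurrent and 4 in primary tumors. Over all kept probes, 6.86% and 6.64% were called higher. Anpep and Mcam, a surface peptidase and an adhesion molecule found on pericytes, rose in both tumor groups. Anpep was at least 4.64-fold higher in recurrent and 4.79-fold higher in primary tumors than in the cultured line, and Mcam at least 4.25-fold and 4.79-fold. Myl9, a myosin light chain of smooth muscle, and Rgs5, a pericyte regulator of G protein signalling, rose in primary tumors only by this test, with limma adjusted p of 0.0249 and 0.04456, against 0.06939 and 0.06292 in recurrent tumors. Both were undetected in SCC-7 cells, and by the bound Myl9 was at least 1.88-fold and Rgs5 at least 1.37-fold higher in primary tumors, so that their 2-fold difference rests on readings below detection. The direct comparison of recurrent with primary tumors called neither of them (limma adjusted p 0.9326 and 0.9643). Of the 19 genes, 11 were undetected in SCC-7 cells and, kept through tumors alone, could not be called lower in tumors. This bears on the absence of lower calls and on the median difference. That median was 0.89 in recurrent and 1.03 in primary tumors, beside -0.11 and -0.15 over all kept probes.

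Of 19 PDGF, TGF-beta and SRF pathway genes 13 were measured, and 4 rose and 1 fell in both tumor groups. Over all kept probes, 6.86% were called higher and 5.02% lower in recurrent tumors, and 6.64% and 5.73% in primary tumors. Pdgfb, the ligand that recruits pericytes, was at least 6.42-fold higher in recurrent and 6.61-fold higher in primary tumors than in the cultured line. Tgfbi, a matrix protein induced by TGF-beta, differed by 4.81 (SE 0.30) in recurrent and 4.58 (SE 0.30) in primary tumors on the log2 scale. Ccn2, the connective tissue growth factor, was at least 15.3-fold and 17.4-fold higher. Tgfbr2, a TGF-beta receptor, differed by 1.66 and 1.54. Smad3, which carries the TGF-beta signal to the nucleus, fell by 1.85 (SE 0.23) in recurrent and by 1.85 (SE 0.23) in primary tumors. Srf itself differed by -0.43 and -0.23 and was not called. The list's median difference was 0.41 in recurrent and 0.25 in primary tumors, beside -0.11 and -0.15 over all kept probes. Of its 13 genes, 3 were undetected in SCC-7 cells.

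**Figure D5:**
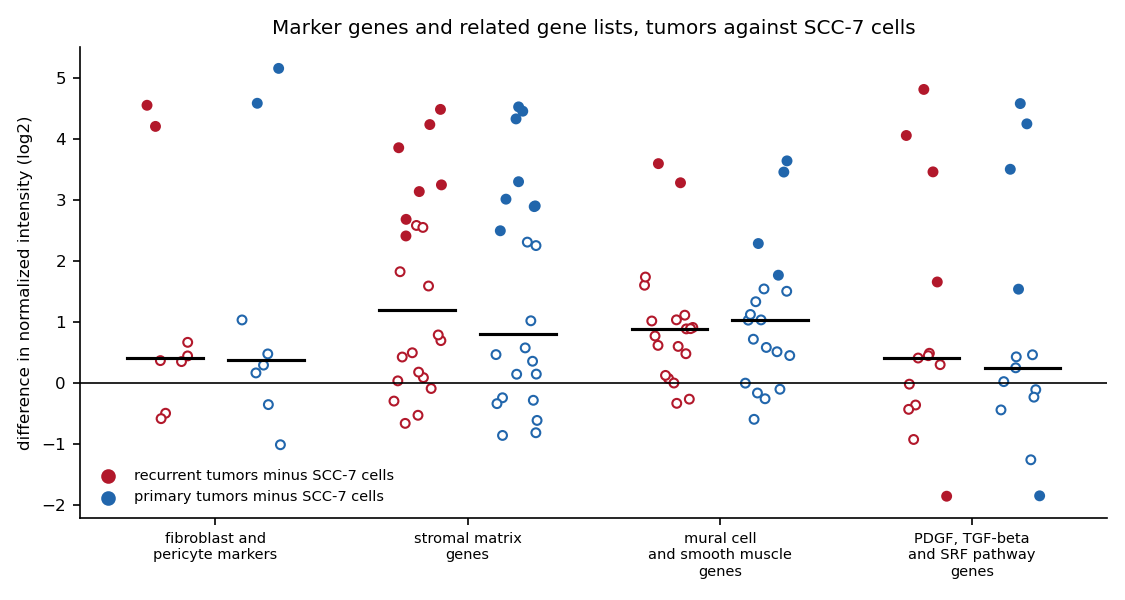
Differences from SCC-7 cells in normalized intensity (log2), 1 point per gene, for the 8 measured marker genes and 3 related lists, recurrent tumors in red on the left and primary tumors in blue on the right of each list. Filled points were called, black bars are medians. In both comparisons 2 of the 8 marker genes and 7 of the 22 stromal matrix genes are filled.

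Between recurrent and primary tumors 0 genes of these 3 lists were called. The largest and smallest differences were 0.64 for Lox and Vim and -0.48 for Tnc and Loxl1 among the matrix genes, 0.39 for Higd1b, 0.38 for Tpm2, -0.55 for Myl9 and -0.63 for Myh11 among the mural genes, and 0.60 for Pdgfc, 0.33 for Tgfbr3, -0.20 for Srf and -0.27 for Mrtfa among the pathway genes.

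Several markers of other cell types moved with the Acta2 and Thy1 differences from SCC-7 cells, and their part in these was not tested. Over all kept probes, 6.86% were called higher in recurrent and 6.64% in primary tumors. Of the macrophage and leukocyte markers, 4 of 4 measured were called higher in both tumor groups. Their summed intensities were 20910 to 25480 in recurrent tumors, 11810 to 23300 in primary tumors and 840.9 to 853.3 in SCC-7 cells. Of the 6 endothelial markers 5 were called higher in both, with sums of 90.2 to 90.7 in SCC-7 cells, where all but Kdr were undetected. Those 5, kept through tumors alone, could not be called lower. Kdr went the other way and was not called, since it fell short of 2-fold. Its log2 difference was -0.70 in recurrent (limma adjusted p 0.02175) and -0.70 in primary tumors (limma adjusted p 0.02297). Salivary gland markers summed to 133.4 in recurrent tumor 1 and to 58050 to 87810 in the other recurrent tumors. They summed to 17640 to 139100 in primary tumors and 3489 to 3656 in SCC-7 cells, with 0 of 6 called. In SCC-7 cells 4 of the 6 were detected too, with Klk1 and Lpo undetected, and the source of the salivary signal was not tested. Markers listed as squamous epithelial (Krt5, Krt14, Krt8, Krt18, Trp63 and Cdh1) were detected at 1 to 5 of 6 measured in recurrent tumors and at 2 to 6 in primary tumors. In SCC-7 cells 4 were detected, with Krt5 and Cdh1 undetected, and Trp63 was detected in no recurrent tumor. Of the 6, 0 were called, and the list does not by itself identify the carcinoma cells. The only measured lymphatic marker, Lyve1, was called higher in both tumor groups, and 0 of the skeletal muscle, adipocyte and bone cell markers were called.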

How the data were processed

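Total RNA of 5 recurrent tumors, 5 primary tumors and 2 SCC-7 samples was labelled as biotin-cRNA and measured on Illumina mouse WG-6 v2 arrays. Per probe and array, the authors deposited a bead intensity that is neither background-corrected nor normalized, and a table of normalized intensity values whose method is not given in the sources used here. Background was estimated from 943 negative controls by normexp (limma 3.58.1, R 4.3.3, robust, offset 16), followed by log2 and quantile normalization of 12 arrays. Probes brighter than the negative controls (p under 0.01) on at least 2 arrays were kept. Detected probes ranged from 13711 to 17083 per array, and the number of arrays limits the precision.

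Recurrent minus primary differences were fitted in limma with animal as a fixed block, the study having taken each pair from the same mouse. Within pairs, deviations from the group means correlated at -0.37, 0.03, 0.34, 0.36 and 0.17. Differences from SCC-7 cells were fitted in 3 groups. P-values were adjusted over 18454 kept probes by Benjamini-Hochberg. The labels do not say whether the SCC-7 samples were separate cultures, so their spread may be technical. The brightest kept probe stood for a gene.

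Genes were named by a rule: all markers by all their probes, up to 4 called genes of each related list per comparison, or without calls the 2 largest and 2 smallest differences, and the 8 genes most like the marker mean. The other genes called in a list are also named. Markers and lists were chosen with earlier results of these data known. Alternatives were other background, scaling, filter and variance settings, the authors' normalized values, all probes of a gene averaged, no block or a random block, left-out arrays, the tumors normalized alone and the methods' t-test. The fits were tested on simulated data. The CArG search with 1 departure was added after the sequences were seen. Figures were drawn with matplotlib 3.10.9.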

Additional observations from a re-analysis of the deposited data

Results flagged for a closer look

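In groups of 5 tumors, a tumor was marked when its distance to the nearest other, divided by the range of the group, exceeded Dixon's critical value. Of 26 groups of 5 searched, 2 held such a tumor, and chance marks about 5% of groups. Both were primary tumor 3. Its Thy1 level (ILMN_2644350) was 12.06, with the nearest primary tumor at 10.15. Its S100a4 level (ILMN_2731901) was 6.16, with the nearest primary tumor at 8.67. The T cell sum of this tumor was 4925, and its part in these 2 levels was not tested.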

How the results depend on the processing

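Acta2 and Thy1 stayed higher in both tumor groups than in SCC-7 cells, and 0 marker probes were called between recurrent and primary tumors, in every alternative run. The size of the differences moved. Without background correction Thy1 differed by 3.17 in recurrent and 3.54 in primary tumors (log2), and Acta2 by 3.72 and 4.32. The authors' normalized values gave 3.42 and 3.79 for Thy1 and 3.98 and 4.58 for Acta2. Median scaling gave larger values, 4.555 and 4.90 for Thy1 and 4.95 and 5.53 for Acta2. Averaging its kept probes gave 3.01 and 3.49 for Acta2. The called marker probes ranged from 2 to 5 in recurrent and from 3 to 6 in primary tumors when 1 tumor or SCC-7 sample was left out. The lowest counts came without SCC-7 sample 1, and also without SCC-7 sample 2 in recurrent tumors, with fewer samples in the fit. The count of 6, without primary tumor 1, included Sparc ILMN_1243212. With all samples, 6 marker probes were also called in primary tumors under median scaling, and when probes had to be detected on at least 5 arrays. Averaging all kept probes of a gene gave 2 called genes in each comparison, since the Acta2 probes then count once.

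Between recurrent and primary tumors, leaving out 1 pair turned the sign of 7 of 8 genes. The log2 differences ranged from -0.34 to 0.0026 for Pdgfra, -0.58 to 0.088 for Pdgfrb, -0.26 to 0.17 for Fap, -0.74 to 0.17 for Thy1, -0.16 to 0.90 for S100a4, -0.15 to 0.34 for Pdpn and -0.054 to 0.26 for Sparc. Acta2 kept its sign, from -0.86 to -0.27. Sparc was -0.011 with its probes averaged. Pdpn in primary tumors against SCC-7 cells ranged from -0.013, without primary tumor 2, to 0.52. None of these was called.

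Without the replicate block, 0 marker probes were called between recurrent and primary tumors, with an adjusted p of 0.9907 for Acta2, and with the animal as a random block (consensus correlation 0.16) 5 were called in each comparison with SCC-7 cells. The block changed no call. Median scaling moved the median log2 difference of all kept probes to 0.13 in recurrent and 0.083 in primary tumors against SCC-7 cells, beside -0.11 and -0.15 in the quantile-normalized values, and turned no sign of the marker genes. Probes near background, those of Pdgfrb and Fap among them, give no fold.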
